A study of Mus musculus with 63 samples.

Results

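Transcript levels of 9 genes of the Notch pathway were followed through 63 tumour libraries. They were the receptors *Notch1* and *Notch2*, the ligands *Dll1*, *Dll4*, *Jag1* and *Jag2*, and *Hes1*, *Hes6* and *Nrarp*, which are grouped as targets here. The genes were picked by symbol, and all 9 were found among the 24766 genes of the table. The libraries came from small intestinal tumours of 2 mice, 1 female and 1 male, that carried *Villin-creERT2*, 1 floxed *Apc* allele (*Apc* fl/+) and 1 copy of *R26R-Confetti* on a C57BL/6 background. Both mice received tamoxifen (4 mg, intraperitoneal, at more than 8 weeks of age) and, 10 days later, the mutagen ENU (200 mg per kg). Both agents and the alleles were thus shared by all groups, Cre acted in the intestinal epithelium, where the *Villin* promoter drives it, and no untreated or normal tissue was measured. The 20 heterotypic tumours, 10 per mouse, held glands of more than 1 Confetti colour, or of 1 colour beside unlabelled glands. In these tumours the clone taking up more of the tumour (major) was separated from the other (minor), and each clone gave its own library. No dissection was made in 23 tumours (female mouse 10, male mouse 13), called undivided here. The study itself set 20 tumours that it calls monoclonal against the clones. Since each sex was represented by a single mouse, mouse and sex cannot be told apart, and tumours of the same mouse are not separate animals.

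Notch is a signal between touching cells. A ligand of the Delta (*Dll*) or Jagged (*Jag*) family on one cell binds a Notch receptor on its neighbour, the receptor is cut, and its intracellular part enters the nucleus and joins the DNA-binding protein RBPJ to switch on genes such as *Hes1*. In the intestinal crypt HES1 represses *Atoh1*, the transcription factor that commits cells to the secretory fate (goblet, Paneth and enteroendocrine cells), and secretory cells in turn display *Dll1* and *Dll4*. *Nrarp* encodes a small feedback inhibitor of the pathway, whereas HES6 is known as an antagonist of HES1 and its gene is often active in cells that take up a differentiated fate. *Dll4* and *Notch1* also act in endothelial cells, and these were bulk libraries, in which fewer cells of a type and less RNA per cell cannot be told apart.

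Values are normalised counts, which the authors scaled between libraries, so read depth per gene is unknown and no counting interval can be given. They summed to between 26140227 and 45909885 per library (median 30889255). The median share of the ribosomal transcript *Rn18s* was 1.24% for major clones, 6.19% for minor clones and 3.11% without division. A list of 7 epithelial markers, among them *Epcam* and *Vil1*, was high in every group, with sums of 282740 to 522975 (major), 223412 to 514800 (minor) and 162632 to 629041 (undivided), and no marker in the 11 lists of cell types had a median of 0. Libraries were labelled by segment of the small intestine (SI10, SI20, SI30). Only 2 divided tumours, both female, came from SI30, and the clones of female tumour 22 carried different segments (SI20 for the major, SI10 for the minor). Differences below are on the scale of log2(normalised count + 1), and a gene was called when its limma p, adjusted by Benjamini and Hochberg over all genes with a mean of at least 10, was under 0.05. All 9 genes passed that filter in every comparison.

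The positions of the genes are given on GRCm39. Of the 9 genes, 4 lie on chromosome 2, namely *Notch1* (ENSMUSG00000026923, chr2:26347915-26406675, minus strand), *Nrarp* (ENSMUSG00000078202, chr2:25070770-25073351, plus strand), *Dll4* (ENSMUSG00000027314, chr2:119156170-119166443, plus strand) and *Jag1* (ENSMUSG00000027276, chr2:136923373-136958693, minus strand). *Notch2* (ENSMUSG00000027878) is at chr3:97920800-98057677 on the plus strand and *Jag2* (ENSMUSG00000002799) at chr12:112871421-112893437 on the minus strand. *Dll1* (ENSMUSG00000014773) is at chr17:15587276-15597134 on the minus strand, where it overlaps *Fam120b* on the opposite strand. *Hes1* (ENSMUSG00000022528) is at chr16:29882134-29886643 on the plus strand and *Hes6* (ENSMUSG00000067071) at chr1:91339204-91342103 on the minus strand. Each value covers the whole transcript output of a gene, and the libraries were made with a stranded kit.

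Per kilobase of annotated exon, the median normalised count over the 63 libraries placed the targets first. *Hes6* stood at 1058, *Hes1* at 425 and *Nrarp* at 138 normalised counts per kilobase. The ligands and receptors followed within a narrow band, with *Jag2* at 69.2, *Dll1* at 57.8, *Notch2* at 55.9, *Jag1* at 47.4, *Dll4* at 41.4 and *Notch1* at 33.8 normalised counts per kilobase. Between-library coefficients of variation of 32.5% to 43.8% for these 6 genes exceeded the steps between neighbours in this order. *Hes1* varied least of all 9 genes (coefficient of variation 14.5%), and *Hes6* and *Nrarp* had 23.5% and 26.8%.

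**Figure D1:**
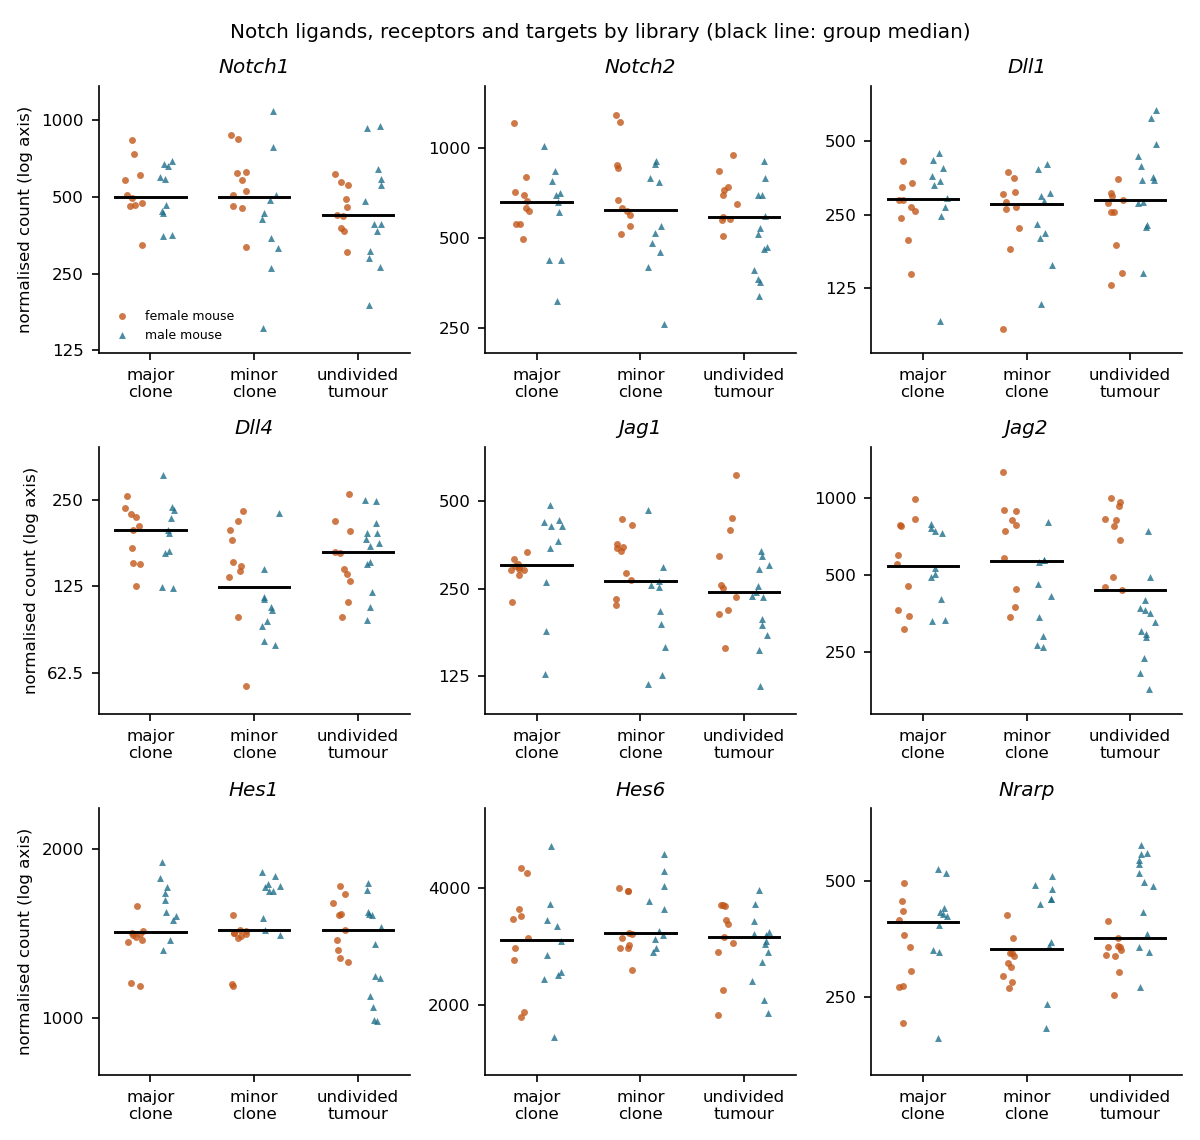
Normalised counts (log axis) of the 9 genes in 20 major clones, 20 minor clones and 23 undivided tumours; each point is a library, coloured by mouse, and the black line is the group median. *Dll4* lies lowest in minor clones (median 124) and highest in major clones (median 196), whereas the medians of *Hes1* in the 3 groups lie between 1423 and 1437.

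The promoters of 3 genes are shown because these genes carry the results that follow: *Hes6* and *Dll1*, whose levels are set against *Atoh1*, and *Dll4*, which differed between clones. Each is the 250 bases before the most upstream annotated start, from RefSeq on GRCm38.p6. Of the 9 genes 8 had an entry, *Hes1* being the exception. Capitals mark CAGNTG on either strand (CANCTG as read here), the E-box class bound by ATOH1-type bHLH factors. The windows are *Hes6* at chr1:91414039-91414288 (minus), *Dll1* at chr17:15376933-15377182 (minus) and *Dll4* at chr2:119325534-119325783 (plus), each written 5′ to 3′ along its gene.
Hes6: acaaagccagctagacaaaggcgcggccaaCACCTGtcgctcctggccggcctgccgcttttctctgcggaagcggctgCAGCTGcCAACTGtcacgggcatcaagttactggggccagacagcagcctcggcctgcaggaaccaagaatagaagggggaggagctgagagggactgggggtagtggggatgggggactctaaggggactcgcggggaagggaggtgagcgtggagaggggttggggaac
Dll1: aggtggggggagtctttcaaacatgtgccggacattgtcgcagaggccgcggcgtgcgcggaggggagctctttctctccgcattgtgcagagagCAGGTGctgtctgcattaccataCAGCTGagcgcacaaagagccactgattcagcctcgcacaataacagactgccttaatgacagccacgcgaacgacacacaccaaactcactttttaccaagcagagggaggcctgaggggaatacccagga
Dll4: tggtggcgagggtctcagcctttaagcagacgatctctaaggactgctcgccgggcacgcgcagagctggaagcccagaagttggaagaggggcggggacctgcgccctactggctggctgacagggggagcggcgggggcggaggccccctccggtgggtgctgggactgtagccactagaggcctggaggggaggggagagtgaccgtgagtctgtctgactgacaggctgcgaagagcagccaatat

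The *Hes6* window held 3 E-boxes, whose first bases lay 220, 171 and 164 bases before the start, the last 2 lying 1 base apart. In the *Dll1* window there were 2, at 155 and 132 bases before the start, and in the *Dll4* window none. At the other annotated start of each gene, *Hes6* held 1 E-box and *Dll1* none, whereas *Dll4* had only 1 annotated start. Over all annotated starts, 3 of the 8 genes held the motif in any window (*Hes6*, *Dll1* and *Jag1*). Of 32851 mouse promoters of the same length, 44.8% held it, counted per window and not per gene. The core of the RBPJ site, TGGGAA on either strand, was in no window of the 8 genes and in 21.6% of all promoters. A match describes letters in a window and not occupancy.

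The first comparison asked whether the pathway differed between the major and minor clone of the same tumour. *Dll4* was higher in major clones and was the only one of the 9 genes to be called (1 of 9, against 1.14% of all 16428 genes tested). The remaining ligands and both receptors were not called, and *Hes6* leaned towards minor clones without passing the adjustment. Here "clone gap" means log2(value + 1) in the major clone minus that in the minor clone of the same tumour.

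*Dll4* ranged from 123 to 305 normalised counts in the 20 major clones (median 196) and from 56.1 to 228 in the 20 minor clones (median 124). The ranges overlapped, and 10 of the 20 minor clones lay below the lowest major clone. The mean gap was 0.58 (SE 0.14, higher in the major clone in 16 of 20 tumours, limma p = 0.000400, adjusted p = 0.0444). Single gaps ran from -0.75, in tumour 19 of the female mouse, to 1.91, in tumour 27 of the male mouse. In the male mouse the major clone was higher in 9 of 10 tumours, with medians of 194 against 105 normalised counts, and in the female mouse in 7 of 10, with medians of 199 and 149. The mean gap was 0.78 in the male and 0.38 in the female mouse, and neither mouse alone passed the adjustment (adjusted p = 0.0722 and 0.694, limma). A direct test of the gap between mice gave a difference of -0.40 (female minus male, SE 0.27, limma p = 0.159, adjusted p = 0.739).

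The call of *Dll4* was close to the threshold. When 1 tumour at a time was left out, its mean gap stayed between 0.51 and 0.65, the adjusted p ran from 0.0161 to 0.0858, and it was under 0.05 in 7 of 20 such fits; without tumour 22 of the female mouse, whose clones carried different segments, it was 0.0778. Without the tumour as a block the adjusted p was 0.180, and with an exact signed-rank test per gene it was 0.0668.

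Markers of several cell types also differed between the clones or leaned to the major clone. Among 7 transcription factors of the secretory lineage, *Atoh1* included, 3 were called higher in major clones and none lower, and their mean log2 level was higher in the major clone in 18 of 20 tumours (mean gap 0.55). Of 7 goblet cell markers 2 were called higher, and of 7 tested enteroendocrine markers 3, beside the 1.14% of all genes called in either direction. The enteroendocrine list shares genes with that of the transcription factors, so these counts are not independent. Paneth markers had 0 of 7 called and a mean gap of 0.34 (major clone higher in 12 of 20 tumours). Enterocyte markers had 1 of 7 called higher and a mean gap of 0.54 (major clone higher in 15 of 20 tumours), and immune markers had 0 of 7 called and a mean gap of 0.36 (15 of 20). Fibroblast and muscle markers were not called (0 of 8), although their mean gap was 0.61 (major clone higher in 14 of 20), and across tumours the *Dll4* gap rose with theirs (Pearson's r = 0.55, permutation p = 0.0124; Spearman's rho = 0.59, p = 0.00739; r = 0.50 without the 2 most distant tumours; 0.65 in the female and 0.29 in the male mouse; 1 of 99 relations examined). Their summed level ran from 1776 to 24571 (major) and from 1665 to 23402 (minor). Endothelial markers, whose cells also use *Dll4*, were not called either (0 of 8). Their summed level was 1164 to 12358 in major and 1244 to 11823 in minor clones, with a mean gap of 0.08 (higher in 11 of 20 tumours), and the correlation of their gap with that of *Dll4* was r = 0.40 (permutation p = 0.0835; rho = 0.48, p = 0.0321; r = 0.28 without the 2 most distant tumours). The part of either list in the *Dll4* gap was not tested. The difference of *Rn18s* was -1.46 (major minus minor, adjusted p = 0.0375, limma), and with libraries rescaled to the same sum without it the *Dll4* gap was 0.52 (adjusted p = 0.0461).

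**Figure D2:**
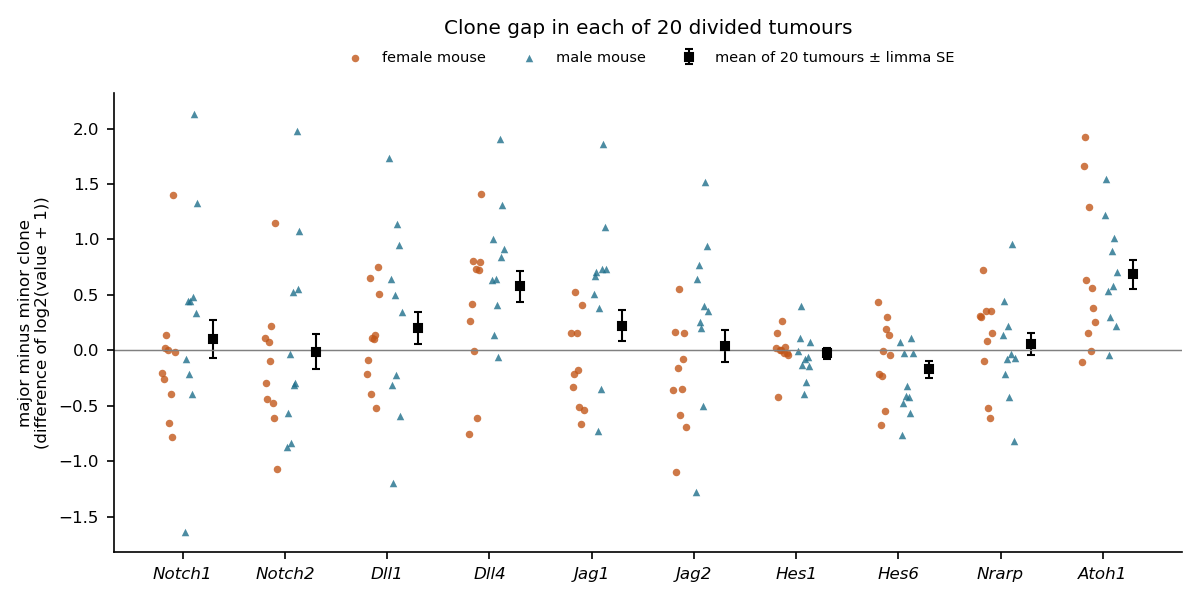
Clone gap (major minus minor clone, difference of log2(value + 1)) of the 9 genes and *Atoh1* in 20 tumours, coloured by mouse, with the mean and its limma standard error in black. The means of *Dll4* (0.58) and *Atoh1* (0.69) stand clear of 0, and those of both receptors lie within 1 standard error of it.

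The receptors showed no common direction. The median of *Notch1* was 500 normalised counts in major clones (324 to 839) and 498 in minor clones (152 to 1090), and the minor clones spread more widely at both ends. Both extreme minor clones came from the male mouse. In the female mouse *Notch1* ranged from 317 to 877 in minor and from 324 to 839 in major clones. Its mean gap was 0.11 (SE 0.17, adjusted p = 0.757, limma), with 10 tumours on each side. *Notch2* had medians of 662 (308 to 1219) and 622 (257 to 1294) normalised counts and a mean gap of -0.01 (SE 0.16, adjusted p = 0.978, limma), the minor clone being higher in 12 of 20.

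Of the other ligands, *Dll1*, the second Delta ligand of crypt secretory cells, had a median of 290 normalised counts in major clones and of 276 in minor clones (mean gap 0.20, SE 0.15, adjusted p = 0.425, limma). *Jag1*, a Jagged ligand that stromal and endothelial cells also make, had medians of 301 and 266 (mean gap 0.22, SE 0.14, adjusted p = 0.365), and *Jag2*, its relative, had medians of 541 and 564 (mean gap 0.04, SE 0.15, adjusted p = 0.889). For both Jagged genes the sides differed by mouse. *Jag1* was higher in the major clone in 8 of 10 tumours of the male and 4 of 10 of the female mouse (mean gaps 0.56 and -0.12), and *Jag2* in 8 of 10 and 3 of 10 (mean gaps 0.33 and -0.24). The test of the difference between mice gave unadjusted p-values of 0.0126 for *Jag1* and 0.0446 for *Jag2*, and neither passed over all genes (limma adjusted p = 0.633 and 0.645). In that test 0 of 16428 genes (0%) were called, and 1257 (7.65%) had an unadjusted p under 0.05.

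Among the targets, *Hes1* was the steadiest, with 1140 to 1894 normalised counts in the major clones, 1139 to 1824 in the minor clones and a mean gap of -0.03 (SE 0.05, adjusted p = 0.770, limma). *Nrarp* had a mean gap of 0.06 (SE 0.10, adjusted p = 0.757), with medians of 390 and 333 normalised counts. *Hes6* ranged from 1656 to 5152 normalised counts in major clones (median 2951) and from 2470 to 4899 in minor clones (median 3065). The groups overlapped almost entirely at the top, and the lowest values were all in major clones. Its mean gap was -0.17 (SE 0.07, minor clone higher in 14 of 20 tumours, limma p = 0.0282, adjusted p = 0.168), a p that 22.4% of all genes reached before adjustment.

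*Hes6* was also the gene in which the clones of a tumour most resembled each other. After removal of the mean of each mouse, the major clone followed the minor clone of the same tumour with r = 0.66 (n = 20 tumours, permutation p = 0.00214; rho = 0.59, p = 0.00849; r = 0.56 without the 2 most distant tumours), in the female mouse with r = 0.57 and in the male with 0.74. For the other 8 genes r lay between -0.27 and 0.35, with permutation p of at least 0.151 for each. These 9 relations were looked at after the values were known.

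Undivided tumours were set against each clone class with the mouse as a covariate. Both comparisons use the same 23 undivided tumours, so they are given side by side. *Dll4* had 95.5 to 261 normalised counts in undivided tumours (median 165), between the medians of the minor and major clones, and overlapped both groups. It was higher than in minor clones by 0.36 (SE 0.15, limma p = 0.0191, adjusted p = 0.157), and against major clones the difference was -0.23 (SE 0.12, p = 0.0741, adjusted p = 0.449). The excess over minor clones lay mostly with the male, whose mean log2 levels of *Dll4* were 7.38 (undivided) and 6.79 (minor). For the female these means were 7.28 and 7.18, with medians of 153 and 149 normalised counts. Whether the mice differed in this excess was not tested. None of the 9 genes was called in either comparison (0 of 9, against 3.7% of 16491 genes for minor and 0.0121% of 16510 for major clones). At an unadjusted p under 0.05, *Dll4* and *Hes6* passed against minor clones and no gene of the 9 passed against major clones, beside 19.6% and 12% of all genes.

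Against minor clones, *Hes6* differed by -0.20 (SE 0.09, limma p = 0.0298, adjusted p = 0.195) and *Hes1* by -0.13 (SE 0.07, adjusted p = 0.316). Against major clones the largest differences after *Atoh1* (-0.51, adjusted p = 0.313) were -0.28 for *Jag1* (SE 0.15, adjusted p = 0.441) and -0.23 for *Notch1* (SE 0.14, adjusted p = 0.506). Over the 9 genes the differences ran from -0.20 to 0.36 against minor clones and from -0.28 to 0.11 against major clones.

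The clone gap of each gene was then related to that of *Atoh1*. *Atoh1* itself was higher in the major clone in 17 of 20 tumours, with 122 to 331 normalised counts in major clones (median 223) and 51.8 to 244 in minor clones (median 143), and it was called (mean gap 0.69, SE 0.13, limma adjusted p = 0.0207). Of the 9 genes, *Hes6* had the strongest correlation with it, a negative one, whose slope did not pass the adjustment over all genes.

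The slope of the *Hes6* gap on the *Atoh1* gap was -0.38 (SE 0.10, limma p = 0.00108, adjusted p = 0.192 over all genes). Pearson's r was -0.67 (permutation p = 0.00118) and Spearman's rho -0.66 (p = 0.00186) over 20 tumours, 1 of 9 such relations. Without the 2 most distant tumours r was -0.66, and the relation had the same sign in each mouse (r = -0.84 in the female and -0.46 in the male mouse, 10 tumours each). In tumour 22 of the female mouse, with the widest *Atoh1* gap (1.92), the *Hes6* gap was -0.67. In tumour 19 of the same mouse, where *Atoh1* was lower in the major clone (-0.10), it was 0.43. Both gaps of a tumour come from the same libraries. Over all genes, 0 of 16427 slopes (0%) were called, although 2075 (12.6%) had an unadjusted p under 0.05.

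**Figure D3:**
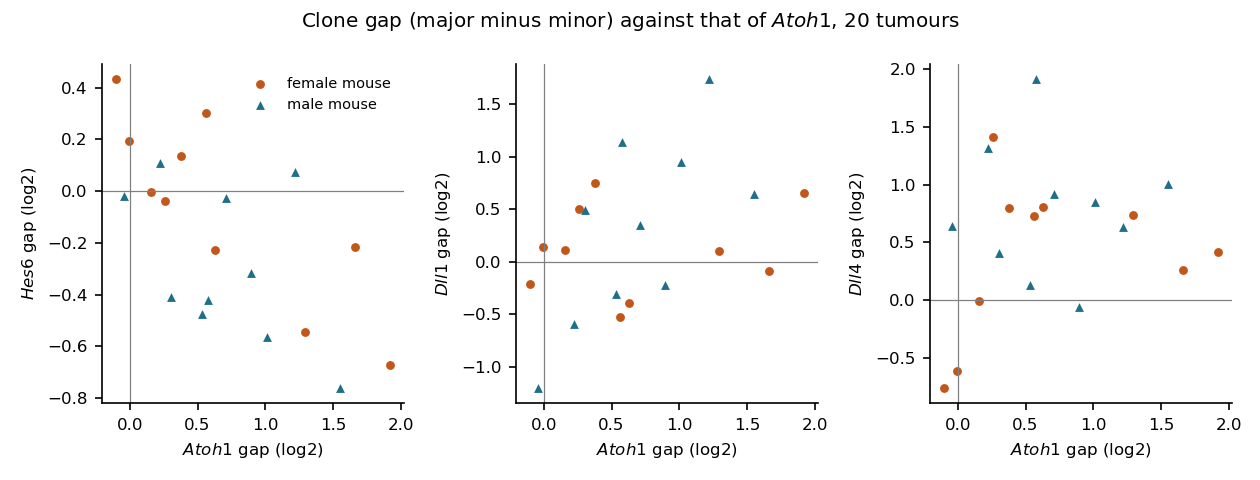
Clone gap of *Hes6*, *Dll1* and *Dll4* (y axes) against that of *Atoh1* (x axes), each a difference of log2(value + 1) between the major and minor clone, in 20 tumours coloured by mouse. The *Hes6* gap falls as the *Atoh1* gap widens (r = -0.67), and the *Dll4* gap shows little relation to it (r = 0.18).

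The ligands and receptors had weaker correlations with it. The *Dll4* gap, called between clones as that of *Atoh1* was, had r = 0.18 with it (permutation p = 0.449; rho = 0.21, p = 0.368). For *Dll1* r was 0.40 (permutation p = 0.0793; rho = 0.38, p = 0.0950), at 0.68 in the male and 0.16 in the female mouse. *Nrarp* had r = 0.44 (permutation p = 0.0556; rho = 0.32, p = 0.169), which was 0.28 without the 2 most distant tumours. The 5 remaining genes lay between r = -0.21 and 0.09.

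The same relation was examined in the 23 undivided tumours, which no clone comparison within tumours had used, with the mean of each mouse removed. *Atoh1* ran there from 46.4 to 345 normalised counts (median 152). *Dll1* rose with it and *Jag2* fell, before adjustment, and the sign for *Hes6* was again negative. *Dll1* had 130 to 675 normalised counts in these tumours (median 287). Its slope on *Atoh1* was 0.45 (SE 0.15, limma p = 0.00696, adjusted p = 0.0992), with r = 0.54 (permutation p = 0.00494) and rho = 0.45 (p = 0.0328), and r was 0.46 without the 2 most distant tumours, 0.68 in the female and 0.48 in the male mouse. *Jag2* had a slope of -0.32 (SE 0.15, limma p = 0.0391, adjusted p = 0.201; r = -0.43, permutation p = 0.0382; rho = -0.42, p = 0.0542). For *Hes6* the slope was -0.19 (SE 0.09, adjusted p = 0.237, limma; r = -0.40, permutation p = 0.0664; rho = -0.31, p = 0.158), and without the 2 most distant tumours r was -0.21. No gene of the 9 was called (0 of 9, against 2.17% of 16510 genes), while *Dll1* and *Jag2* had an unadjusted p under 0.05, as did 22.4% of all genes.

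*Dll1* also varied with markers of differentiated cells other than the secretory ones. Across the 23 undivided tumours it followed the mean of 7 enterocyte markers, genes of fat uptake and brush border digestion such as *Fabp1* and *Sis*, with r = 0.87 (permutation p = 1e-05, the smallest that 100000 permutations give; rho = 0.86), at 0.93 in the female and 0.89 in the male mouse and 0.79 without the 2 most distant tumours. It also followed enteroendocrine (r = 0.72, permutation p = 0.000210), secretory transcription factor (r = 0.69, p = 0.000410) and goblet markers (r = 0.64, p = 0.000860), and ran against markers of replication and mitosis (r = -0.62, p = 0.00263). Other members had the opposite sign with enterocyte markers. *Notch2* had r = -0.67 (permutation p = 6e-05), *Jag2* -0.63 (p = 0.00119) and *Notch1* -0.52 (p = 0.00287). *Hes1* followed the 8 endothelial markers instead (r = 0.74, permutation p = 0.000880; rho = 0.66; 0.35 in the female and 0.81 in the male mouse). Of the 9 genes by 11 lists, 99 relations in all were computed. The lists share their libraries, and the enteroendocrine and secretory transcription factor lists share genes, so the relations are not independent.

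**Figure D4:**
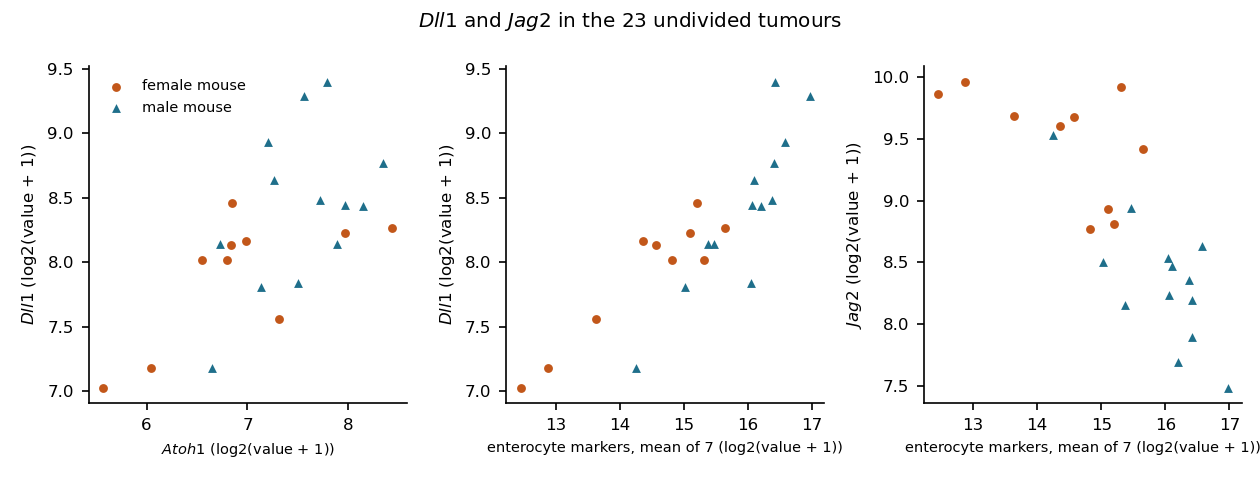
*Dll1* against *Atoh1*, *Dll1* against the mean of 7 enterocyte markers and *Jag2* against the same mean, all as log2(value + 1), in the 23 undivided tumours coloured by mouse. *Dll1* rises with enterocyte markers within each mouse (r = 0.93 in the female and 0.89 in the male mouse), while *Jag2* falls (r = -0.56 and -0.74).

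Among themselves, the 9 genes gave 36 pairs in the undivided tumours, examined after the values were known. The receptors rose together (*Notch1* with *Notch2*, r = 0.73, permutation p = 0.000520; rho = 0.72; 0.62 without the 2 most distant tumours). *Dll1* ran against *Notch2* (r = -0.63, permutation p = 0.00249) and against *Jag2* (r = -0.67, p = 0.000890), and *Nrarp* ran against *Hes1* (r = -0.63, permutation p = 0.00605) and *Jag1* (r = -0.52, p = 0.00537). *Dll1* and *Dll4*, both Delta ligands, had r = 0.14 (permutation p = 0.541).

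Over 16511 genes in the undivided tumours, with mouse means removed, those most like each member differed from member to member. For *Dll1* they included *Pls1* and *Acsl5* (r = 0.90 and 0.88 over 23 tumours), for *Notch1* *Dock9*, *Aldh5a1* and *Zkscan8* (0.89, 0.88 and 0.86), and for *Hes1* *Aldh1a3*, *Sox7* and *Itga5* (0.89, 0.88 and 0.87). For *Notch2* they were *Lars*, *Prkdc* and *Rbm26* (0.86, 0.84 and 0.83), and for *Nrarp* *Cotl1*, *Eci1* and *Pvt1* (0.83, 0.82 and 0.81). *Jag1* was nearest to *Stx1a*, *Fstl4* and *Rmdn2* (0.82, 0.82 and 0.78), *Jag2* to *Tmem164*, *Zbtb41* and *Zfp664* (0.82, 0.77 and 0.73), and *Hes6* to *Dimt1*, *Ptrh2* and *Selenoh* (0.80, 0.75 and 0.75). *Dll4* had the weakest neighbours, *Jund*, *Orai2* and *Ubb* (0.72, 0.71 and 0.71). No member was among the 3 nearest genes of another.

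The clone gaps of several members moved with those of markers of dividing cells, across 20 tumours and 99 relations examined after the values were known. The gap of *Notch2* followed that of replication and mitosis markers with r = 0.76 (permutation p = 0.000160; rho = 0.74), that of *Notch1* with 0.68 (p = 0.000870), that of *Jag2* with 0.68 (p = 0.00100) and that of *Jag1* with 0.63 (p = 0.00306). The replication list itself had a mean gap of 0.08, with the major clone higher in 10 of 20 tumours. The *Jag1* gap also followed that of endothelial markers (r = 0.74, permutation p = 0.000190; rho = 0.66; 0.39 in the female and 0.86 in the male mouse), and the *Dll1* gap that of enteroendocrine markers (r = 0.69, p = 0.000970; 0.52 without the 2 most distant tumours). What these lists contribute to the gaps was not tested.

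Between the mice, *Jag2* and *Nrarp* differed in undivided tumours. *Jag2* ranged from 435 to 996 normalised counts in the 10 tumours of the female mouse (median 795) and from 178 to 738 in the 13 of the male mouse (median 328). The ranges overlapped, but the female median lay above the highest tumour of the male mouse. The difference was 1.11 (female minus male, SE 0.20, segment as covariate, limma adjusted p = 0.000732). *Nrarp* was lower in the female mouse, with 253 to 393 normalised counts (median 334) against 265 to 617 (median 496), by 0.48 on the log2 scale (SE 0.13, adjusted p = 0.0132, limma). These 2 of 9 calls stand beside 19.1% of 16511 genes called in the same comparison, and 33.3% of genes had an unadjusted p under 0.05. The call of *Nrarp* was lost when libraries were rescaled to the same sum (difference -0.28, adjusted p = 0.132), a scaling that moved the median of all genes from 0.05 to 0.25. *Dll1* (-0.52, adjusted p = 0.122) and *Notch2* (0.37, adjusted p = 0.121) did not pass.

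Markers differed between the mice too. In the female mouse 6 of 7 enterocyte markers were called lower and 4 of 8 endothelial markers higher, and the part of these cells in the difference of *Jag2* or *Nrarp* was not tested. In the divided tumours from SI10 and SI20, examined after the values were known, the difference of *Jag2* was -0.11 in major clones (adjusted p = 0.891) and 0.45 in minor clones (adjusted p = 0.243, limma), and that of *Nrarp* was -0.22 and -0.29 (adjusted p = 0.653 and 0.279). *Dll4* and *Hes1* were called between mice in minor clones (2 of 9, against 11% of 16444 genes, 28.5% having an unadjusted p under 0.05), *Dll4* being higher in the female mouse by 0.64 (SE 0.19, adjusted p = 0.0378) and *Hes1* lower by 0.27 on the log2 scale (SE 0.08, adjusted p = 0.0292). Over all minor clones, SI30 included, the mean log2 level of *Dll4* was 7.18 in the female and 6.79 in the male mouse. Neither gene was called in undivided tumours, where both medians lay the other way. For *Dll4* they were 153 in the female and 176 in the male mouse, and for *Hes1* 1481 and 1356 normalised counts. In major clones 0 of 9 genes were called, against 1.63% of 16428 genes, and *Hes1* alone of them had an unadjusted p under 0.05 (0.0169, limma), as did 14.1% of all genes. Whether the mouse difference of *Jag2* or *Nrarp* depended on the class of library was not tested.

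**Figure D5:**
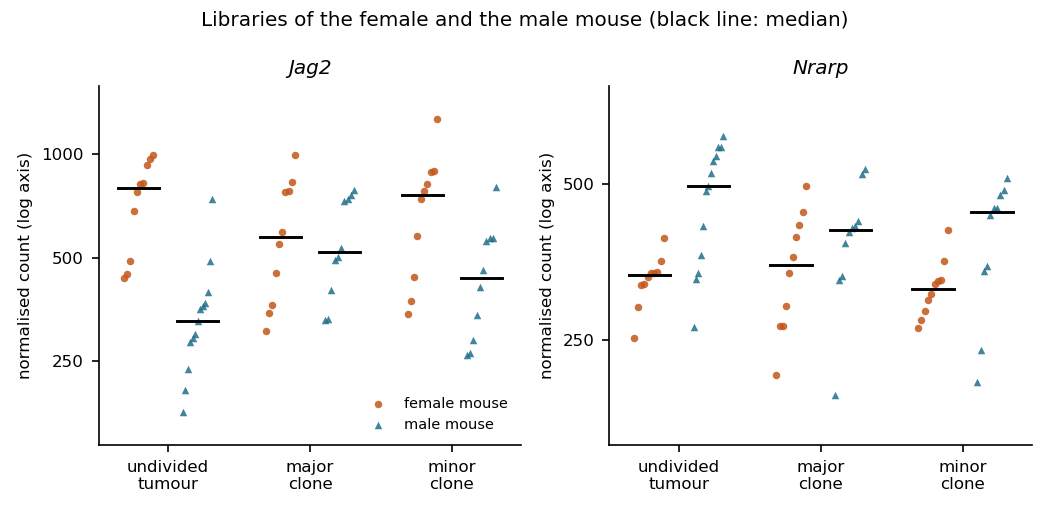
Normalised counts (log axis) of *Jag2* and *Nrarp* by class of library and mouse; each point is a library and the black line the median. In undivided tumours *Jag2* is higher in the female mouse (median 795 against 328) and *Nrarp* lower (334 against 496).

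No difference by segment was detectable in these genes. Between SI10 and SI20 in undivided tumours, 12 and 11 libraries, none of the 9 genes was called (0 of 9, against 0.17% of 16511 genes) or had an unadjusted p under 0.05 (7.62% of all genes did), and their differences ran from -0.22 for *Jag1* to 0.24 for *Nrarp* (limma).

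The rest of the pathway was read from 49 further genes, of which 47 were in the table and 44 were tested. *Dlk2*, *Dll3* and *Hes5* were too low to be tested or absent, as were *Hes3* and *Hes7*. Between major and minor clones none of the 44 was called, with a median difference of 0.02 against 0.01 for all genes. Against minor clones, undivided tumours were higher in *Neurl1b*, a ubiquitin ligase that acts on ligand uptake (1 of 44, beside 3.7% of all genes called), with 49.7 to 200 normalised counts (median 98.5) against 26.3 to 110 (median 66.9). That difference was 0.58 (SE 0.17, adjusted p = 0.0438, limma). Against major clones none of the 44 was called.

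Along *Atoh1* in the undivided tumours, 3 of the 44 were called, beside 2.17% of all genes. The count over all genes was 359, which fell to 49 with libraries rescaled to the same sum and to 2 when *Rn18s* was left out of that sum. The fringe glycosyltransferase *Lfng*, which modifies Notch receptors and alters their response to ligands, fell as *Atoh1* rose (slope -0.61, SE 0.12, limma adjusted p = 0.0170), as did the glycosyltransferase *Poglut1* (slope -0.35, SE 0.08, adjusted p = 0.0393). *Hes2* rose (slope 1.07, SE 0.26, adjusted p = 0.0408). Between the mice, 7 of the 44 were called in undivided tumours, beside 19.1% of all genes, with *Adam10* (0.57), *Kdm5a* (0.52) and *Rbpj* (0.32) higher in the female and *Hes2* (-1.84), *Neurl1b* (-0.67), *Numb* (-0.42) and *Psenen* (-0.36) lower.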

How the data were processed

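RNA from 63 libraries of small intestinal tumours of 2 mice was analysed (20 major clones, 20 minor clones, 23 undivided tumours). Each gene's value is a signal that the authors deposited: according to the methods of the study, the authors trimmed reads (Trimmomatic 0.39), estimated gene counts with Salmon 1.9.0 against Gencode M30 and deposited normalised counts; STAR 2.7.7a, Picard 2.27.3 and FastQC 0.11.9 served quality control. The authors name DESeq2 among their tools. How the values were scaled is not given in the sources used here. No value above 0 was whole, so reads were not recovered and the depth is unknown.

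Undivided tumours and the tumour of each clone follow from the sample labels. Which clone is major came from the source data of the study, since the labels give only a letter. The labels give 23 undivided tumours where the design names 20 monoclonal tumours, and all 23 were used. Clones were paired by tumour; their deviations from the class mean correlated at a median of 0.265 across genes (0.0282 to 0.620, above 0.1 in 17 of 20 tumours), against -0.0198 between different tumours.

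A gene was tested when its mean reached 10, on log2(value + 1) with limma 3.58.1 (eBayes with trend, R 4.3.3), with Benjamini-Hochberg adjustment over all genes and a threshold of 0.05. The tumour was a block between clones, and the mouse (or the segment, between mice) a covariate in undivided tumours. Pearson's r and Spearman's rho used 100000 two-sided permutations, within mice where mouse means were removed; beside the number of relations, the p adjusted over all genes is given where a model over all genes exists. The code was tested on simulated data. Python 3.11.15, numpy 2.4.6, scipy 1.17.1, pandas 2.3.3 and matplotlib 3.10.9 were used. Positions came from Gencode M39 on GRCm39, promoters from RefSeq on GRCm38.p6.

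The 9 genes, the pathway and marker lists and the tests were chosen with earlier results of these data known. Named beside the 9 genes were *Atoh1*, *Rn18s*, pathway genes called between clones or against undivided tumours, and for each of the 9 the 3 genes with the highest r, of which 1 is not reported here; pathway genes called along *Atoh1* or between mice were named after their values were seen. Alternatives covered the pseudocount (0.1 and 5), the filter (none, mean of at least 50), quantile normalization, rescaling to the same sum with and without *Rn18s*, limma without trend, blocks and covariates, each mouse alone, segments, a signed-rank test and leaving out each library or tumour; leaving out libraries between mice and segments, the mouse comparison within clones and correlations of clone gaps with lists, of members with each other and between clones of a tumour were added after seeing the data.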

Additional observations from a re-analysis of the deposited data

Results flagged for a closer look

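In each mouse, the values of every member were examined within each class of library that held 10, and a library was singled out when its distance to the next one was large for a group of its size by Dixon's criterion, which chance exceeds in about 1 of 20 groups. Of 45 groups of 10 libraries, 5 held such a library. *Notch2* was highest in the major clone of tumour 29 of the female mouse, at 1219 normalised counts, with the next at 800. *Dll1* was lowest in the major clone of tumour 23 of the male mouse, at 91.5, with the next at 247. *Dll1* was also lowest in female tumour 29, there in the minor clone, at 84.9, with the next at 182. *Jag1* was lowest in the major clone of tumour 28 of the female mouse, at 225, with the next at 278. *Nrarp* was lowest in the major clone of tumour 29 of the male mouse, at 196, with the next at 326.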

How the results depend on the processing

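The differences or slopes of members followed through the alternatives were 28, a selection from all those tested, and 3 of them were called. The calls of *Dll4* and *Hes1* between mice in minor clones were not among the 28. Leaving aside fits without single libraries, the call of *Dll4* between clones held in 6 of 13 alternatives, that of *Jag2* between mice in 9 of 9 and that of *Nrarp* in 7 of 9. Between major and minor clones 188 genes were called. The count was 85 with no filter, 366 with quantile normalization, 292 at the same sum, 602 at the same sum without *Rn18s*, 89 without trend, 48 with the signed-rank test, 33 in the male mouse alone, 42 without the tumour of 2 segments, and 0 in the female mouse alone (limma; 1213 genes at an unadjusted p under 0.05). With no replicate block, so without the pairing of clones by tumour, it was 0 (2142 genes at an unadjusted p under 0.05). Leaving out single tumours gave 25 (without tumour 20 of the male mouse) to 859 (without tumour 19 of the female mouse). The share of higher calls was 58.5%, but 38.5% with quantile normalization and 27.7% at the same sum without *Rn18s*.

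The *Dll4* gap (0.58) lost its call with no filter (adjusted p = 0.0578) and without trend (0.0544), beside the losses given above. *Notch1* turned to -0.074, *Jag1* to -0.12 and *Jag2* to -0.24 in the female mouse alone, *Notch2* to 0.12 in the male mouse alone and to 0.012 without the tumour of 2 segments, and *Jag2* to -0.014 at the same sum without *Rn18s*; none of these was called before or after. Leaving out single tumours moved *Notch1* from -0.0012 to 0.20, *Notch2* from -0.12 to 0.045 and *Jag2* from -0.034 to 0.11.

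Undivided tumours against minor clones gave 610 calls, 367 with mouse and segment, 325 in SI10 and SI20, 0 in the female mouse alone (1428 at an unadjusted p under 0.05) and 274 to 959 when single libraries were left out. *Hes1* differed there by 0.10 in the female mouse alone and by -0.33 in the male mouse alone, and was called in neither. Against major clones, 2 calls became 1 with quantile normalization and 0 with no filter, either rescaling, mouse and segment, SI10 and SI20 only or either mouse alone (1542 to 2580 genes at an unadjusted p under 0.05), and 0 to 25 when single libraries were left out. Between segments 28 calls became 18 with pseudocount 0.1 and 15 with no covariate (5 to 53 with single libraries left out).

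Between mice, 3154 calls ranged from 2307 to 3654 with single libraries left out; higher calls were 46.2%, but 77.9% at the same sum and 69.9% without *Rn18s*. *Nrarp* lost its call in both (-0.28 and -0.33, adjusted p = 0.132 and 0.115), and *Notch2* gained one at the same sum (0.57, adjusted p = 0.0439). Slopes on *Atoh1* in undivided tumours gave 359 calls, 163 with no filter, 49 at the same sum, 2 without *Rn18s*, 190 without trend and 1304 with no covariate (5 to 1180 with single libraries left out); with no covariate *Dll1* (0.52, adjusted p = 0.0251) and *Jag2* (-0.58, adjusted p = 0.0419) were called. The gap between mice and its slope on *Atoh1*, at 0 calls, gave 0 to 1 and 0 to 3 with single tumours left out. The causes were not tested. The unknown depth limits what can be said of single low values.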
